A study of Rattus norvegicus with 2 samples.

Results

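Cullins are the scaffolds of cullin-RING ubiquitin ligases, a large class of enzymes that attach ubiquitin to proteins and so mark many of them for the proteasome. The C-terminal part of a cullin holds a RING protein that recruits the ubiquitin-charged enzyme, and the N-terminal part holds an adaptor with an exchangeable substrate receptor. A ligase is switched on when the ubiquitin-like protein NEDD8 is joined to the cullin, and off when the COP9 signalosome removes it. The receptors define what is degraded: the inhibitor of NF-kappaB is a substrate of Cul1 ligases, the oxidant-regulated factor NRF2 of the Cul3 ligase with Keap1, and the hypoxia-inducible factors of the Cul2 ligase with Vhl.

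The family was taken as the genes with the symbols Cul1, Cul2, Cul3, Cul4a, Cul4b, Cul5, Cul7 and Cul9, which are 8 of 15409 symbols measured. They were picked because the family stood high in the treated library, so their levels and folds describe these libraries and test nothing. RNA was sequenced from the rat basophilic leukaemia line RBL-2H3, which serves as a stand-in for mast cells. It is a single tumour-derived line, so both groups share its genotype. The saline group received normal saline. The treated group received PM2.5, the fine fraction of airborne particulate matter, plus IgE and its antigen DNP-HSA, which crosslink the high-affinity IgE receptor. By the labels the particles and the IgE with antigen came together, so their parts in any fold cannot be told apart. Whether the saline cells were also given IgE and antigen, and for how long either group was exposed, the labels leave unsaid.

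Each group had 1 library, so no difference between the conditions could be tested, and the spread between cultures is unknown. The listed transcripts held 7279671 reads in the saline library and 3964955 in the treated library, a ratio in depth of 1.84. Reads not assigned to a listed transcript are not in these totals. Of 12 mast cell and basophil markers 9 were listed, with a summed normalised count of 24154 in the saline and 20875 in the treated library. Of these 9 markers 2 were at least 2-fold higher and 1 lower, where 12.1% of 15097 symbols were higher and 19.1% lower. The log2 folds were 1.74 for Cpa3, 0.44 for Fcer1a, -0.21 for Kit, -0.45 for Gata2 and -1.07 for Hdc. No T cell or B cell marker was listed. Of 4 macrophage markers 3 were listed, with a summed normalised count of 1273 in the saline and 510.4 in the treated library, mostly from Csf1r. The part of either marker set in any difference below was not tested.

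Levels are given as normalised counts, reads divided by the size factor of the library, summed over the isoforms of a symbol. Folds are log2 ratios of the treated over the saline library after adding 1 to each normalised count. Brackets hold exact 95% Clopper-Pearson intervals of the ratio without the added 1, which cover counting error only. A symbol counts as different here when its fold is at least 2 either way and either library reaches a normalised count of 1. In RNA of whole cultures, fewer cells of a type and less RNA per cell cannot be told apart.

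Cul3, Cul5 and Cul4b were the cullins with a higher level in the treated library, each by more than 2-fold, and Cul9 was lower by more than 2-fold. Cul1 and Cul2 lay above 0 but within 2-fold, and Cul4a and Cul7 were close to 0. By the size rule 3 of 8 cullins were higher and 1 of 8 lower, where 12.1% of 15097 symbols were higher and 19.1% were lower. All 8 passed a stricter minimum of 50 in either library, and with it the shares among 9469 symbols were 7.47% and 8.59%. The median log2 fold of the family was 0.69, that of all 15097 symbols -0.07. With the highest isoform of each symbol alone, the median of the family was 0.33 and that of 15091 symbols -0.06. Among 6971 symbols with a mean level within the range of the cullins the median was -0.02, with a middle 50% from -0.49 to 0.43. Because the family was chosen on this contrast, nothing is read from these shares.

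Cul3 (ENSRNOG00000015633), which binds BTB-domain receptors such as Keap1, had a normalised count of 333.1 in the saline library (384 reads) and 837.4 in the treated library (507 reads). Its log2 fold of 1.33 (1.14 to 1.53) was the highest of the 8, and its interval lay entirely above a 2-fold difference. A single isoform carried all of its reads.

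Cul5 (ENSRNOG00000008039) pairs elongins B and C with receptors that carry a SOCS box, among them the inhibitors of cytokine signalling. It stood at 133.6 in the saline (154 reads) and 315.5 in the treated library (191 reads). The log2 fold was 1.23 (0.93 to 1.56), so the counting error alone also allowed a value just under 2-fold.

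Cul2 (ENSRNOG00000015292) uses the same elongins with receptors such as Vhl. Its level was 183.0 in the saline (211 reads) and 272.5 in the treated library (165 reads), a log2 fold of 0.57 (0.27 to 0.88). The fold of Cul5 exceeded that of Cul2 by 0.66 on the log2 scale, and their intervals did not overlap. RefSeq lists a pseudogene of each of Cul2 and Cul4b in the rat genome. Reads that match both copies may have been split or dropped, and no source used here says which, so these values are uncertain.

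Cul4a and Cul4b are close paralogs that share the adaptor Ddb1 and its receptors, and act in DNA repair, replication control and chromatin. Cul4b (ENSRNOG00000002585) stood at 257.6 in the saline (297 reads) and 601.2 in the treated library (364 reads), a log2 fold of 1.22 (0.998 to 1.45). Cul4a (ENSRNOG00000019649) had nearly equal levels, 365.1 in the saline (421 reads) and 378.2 in the treated library (229 reads). Its log2 fold was 0.05 (-0.19 to 0.29), and -0.0019 with the library totals made equal. The paralogs thus differed in fold by 1.17 on the log2 scale, a difference that no rescaling of the libraries alters, with intervals well apart.

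Cul1 (ENSRNOG00000005310), the scaffold of the SCF ligases with Skp1 and F-box receptors, had the most reads of the family. Its level was 561.2 in the saline (647 reads) and 982.7 in the treated library (595 reads), a log2 fold of 0.81 (0.65 to 0.97). That value sums 2 isoforms, and with 1 of them alone it was near 0, as described below. The 3 protein-coding symbols with the most similar pair of log2 levels were Supt16h, Pcna and Dync1i2, at Euclidean distances of 0.032, 0.034 and 0.049 over the 2 libraries.

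Cul7 and Cul9 are large atypical cullins, and Cul7 works with the receptor Fbxw8. Cul9 (ENSRNOG00000018372) was at 416.3 in the saline (480 reads) and 173.4 in the treated library (105 reads). The log2 fold of -1.26 (-1.58 to -0.96) made it the one cullin with a lower level past the size rule. Cul7 (ENSRNOG00000017857) had the fewest reads, 73 in the saline and 37 in the treated library, or normalised counts of 63.3 and 61.1. At this depth its log2 fold of -0.05 (-0.66 to 0.54) could not be told from 0.

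The order of the folds ran from Cul3 over Cul5, Cul4b, Cul1, Cul2, Cul4a and Cul7 to Cul9. Cul3, Cul5 and Cul4b did not differ from each other beyond their counting intervals, nor did Cul1 from Cul2, nor Cul4a from Cul7, and the interval of Cul2 also overlapped those of Cul4a and Cul7, and that of Cul1 overlapped that of Cul5. The interval of Cul9 overlapped no other. The distance from the highest to the lowest fold was 2.59 on the log2 scale. Transcript lengths were not used here, so the levels of different cullins are not ranked.

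**Figure D1:**
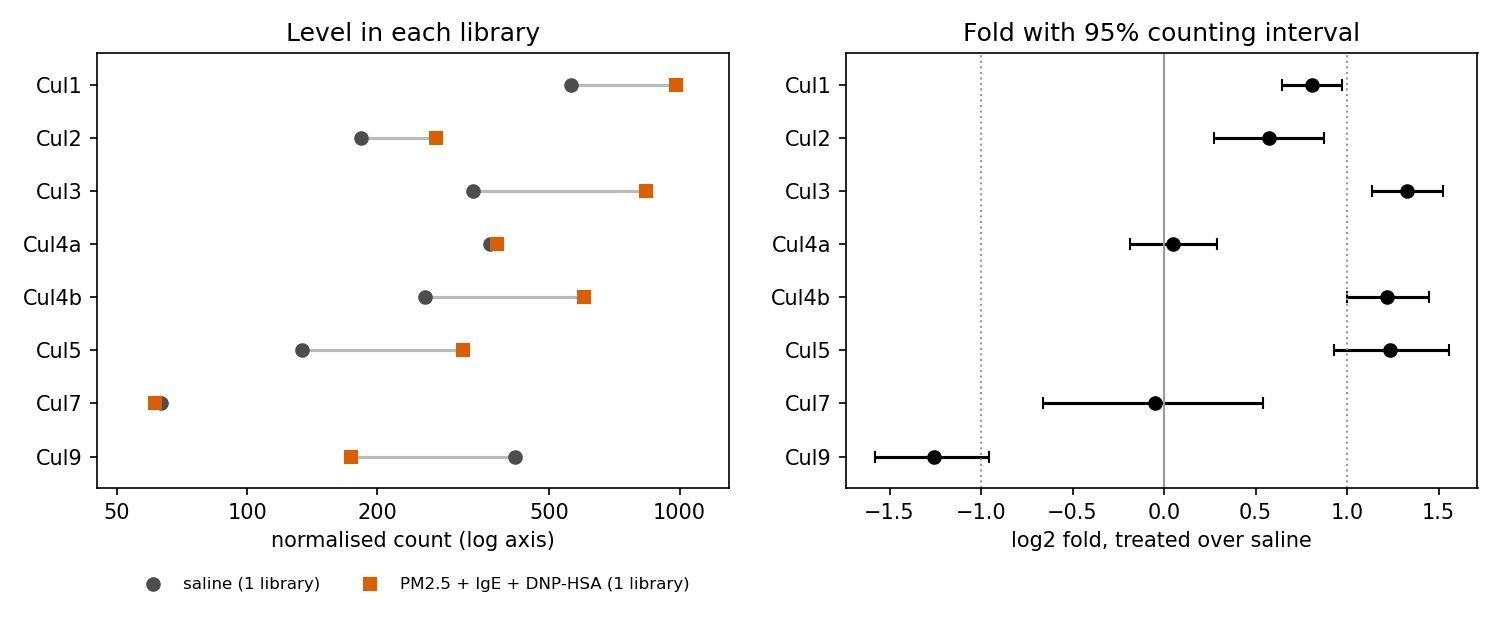
Left, normalised count (log axis) of the 8 cullins in the saline library (circles) and in the library given PM2.5, IgE and DNP-HSA (squares); right, log2 fold with its exact 95% counting interval, with dotted lines at 2-fold. Cul3, Cul5 and Cul4b lie above 1, Cul9 lies below -1, and Cul4a and Cul7 sit at 0.

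In the authors' deposited table no cullin transcript was among the 57 selected ones. Those are 57 of 20367 transcripts, so few that nothing is read from the absence of cullins. The p-values that the authors' deposited table lists for the isoforms carrying the reads were 0.098 for Cul3, 0.12 for Cul4b, 0.13 for Cul9 and 0.15 for Cul5. Adjusted values in the authors' deposited table were 0.92 or higher for each of these, and 0.92 was also the smallest adjusted value it holds for any transcript.

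The isoforms of Cul1 were distributed differently in the 2 libraries. In the saline library all 647 reads were assigned to ENSRNOT00000085805. In the treated library that isoform had 320 reads and ENSRNOT00000007620 had 275, which was 46.2% of the symbol (exact 95% interval 42.2% to 50.3%). The 0 of 647 reads in saline allow a share of up to 0.464% by the floor of 3 reads, and of up to 0.569% by the exact interval. As normalised counts, ENSRNOT00000085805 was at 561.2 in saline and 528.5 treated, a log2 fold of -0.09 (-0.28 to 0.11), whereas ENSRNOT00000007620 was at 0 and 454.2. With 3 reads put in place of 0 in the saline library the latter was 174.6-fold higher. Its exact interval allowed a log2 fold down to 7.14. Counted on ENSRNOT00000085805 alone, Cul1 lay near 0 like Cul4a and Cul7. Whether the reads on ENSRNOT00000007620 also match the other isoform is unknown. The summed log2 fold of 0.81 counts them wherever they were assigned.

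Such a gain of an isoform was found in 4.31% of 2205 symbols with several isoforms and at least 50 normalised counts in both libraries. These are symbols with an isoform at 0 in saline and at 50 or more in the treated library. Of the 3 cullins that enter this count, Cul1, Cul2 and Cul4a, only Cul1 was such a case. In Cul2 the second isoform had 4 saline and 0 treated reads, and in Cul4a 1 and 0. The remaining cullins were listed with 1 isoform each. The opposite case, an isoform at 0 in the treated library and at 50 or more in saline, was found in 8.98% of the 2205 symbols and in none of these cullins. No source used here says how reads shared by isoforms were assigned.

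Isoforms of some partner genes were also distributed differently. Vprbp, a substrate receptor of the Cul4 ligases, is also called Dcaf1. It was the only one of 196 measured partner genes among the transcripts that the authors selected. With 57 of 20367 transcripts selected, nothing is read from that count. The selected isoform, ENSRNOT00000018932, had 53 saline and 244 treated reads, a log2 fold of 3.10 (2.70 to 3.59). The authors' deposited table gives it a p-value of 0.041 and an adjusted value of 0.92. The other isoform, ENSRNOT00000079801, went the opposite way with 1094 saline and 253 treated reads, at -1.18 (-1.39 to -0.98). Summed, Vprbp stood at 994.8 in the saline and 820.9 in the treated library, a log2 fold of -0.28 (-0.43 to -0.12).

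Tceb1 encodes elongin C, which links Cul2 and Cul5 to their receptors, and its reads lay on different isoforms in the 2 libraries. In saline all 102 reads were on ENSRNOT00000082813, which had 1 read in the treated library. There, ENSRNOT00000050236 had 49 reads and ENSRNOT00000090313 had 54, both with 0 in saline. The sum gave a log2 fold of 0.95 (0.55 to 1.37), while the isoform with the highest mean level taken alone gave -5.08. Of 36 partners with several isoforms and at least 50 normalised counts in both libraries, 5 had an isoform at 0 in one library and at 50 or more in the other. Over all 2205 such symbols the share was 11.4%.

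**Figure D2:**
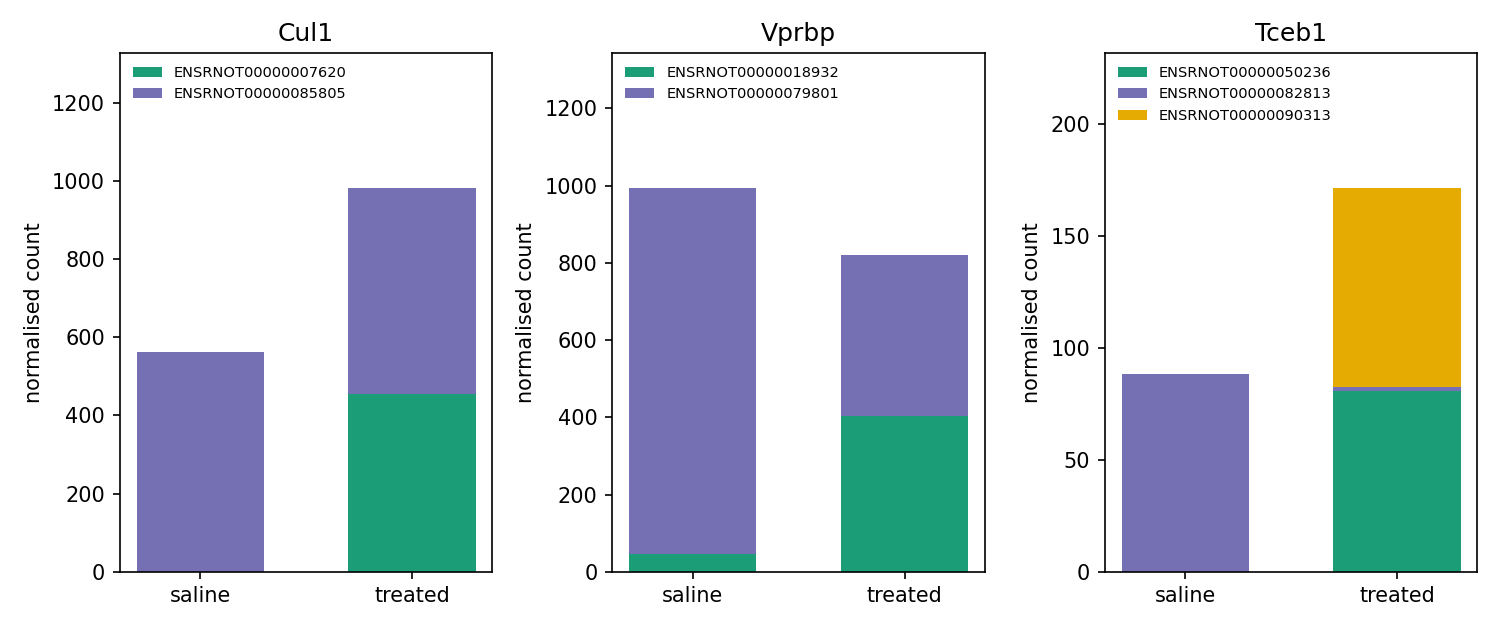
Stacked bars of the normalised count of each isoform of Cul1, Vprbp and Tceb1 in the saline and in the treated library, 1 library each. The lower segment of Cul1, 454.2 in the treated library, is at 0 in saline; in Vprbp the lower segment is larger in the treated library while the upper one is smaller; the Tceb1 isoform that held the saline reads has 1 treated read.

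Genes that build and control the ligases were described from lists written from textbook knowledge. Each count of higher and lower genes below uses the size rule and is set against the 12.1% and 19.1% above. Counts among genes that reach a normalised count of 50 are instead set against 7.47% higher and 8.59% lower. Of 6 adaptor genes 1 was higher and 0 lower, with a median log2 fold of 0.19. Skp1, the adaptor of Cul1, was the higher one at 1.16 (0.998 to 1.33), from 538 saline and 634 treated reads. Ddb1, the adaptor of Cul4a and Cul4b, was at -0.24 (-0.30 to -0.18) with 6895 and 3061 reads. Elongin B, listed as Tceb2, was at 0.10, and Kctd10, a BTB adaptor of Cul3, at -0.49. Skp1 and Cul1 were both above 0, Cul1 only with its isoforms summed. Ddb1 lay below 0, while Cul4b was at 1.22 and Cul4a at 0.05.

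The RING proteins that complete the ligases had nearly equal levels. Rbx1, the RING subunit of most cullins, had 138 saline and 75 treated reads, a log2 fold of 0.05 (-0.38 to 0.47). Rnf7, the RING partner of Cul5, had 147 and 83 reads and lay at 0.10 (-0.30 to 0.50). Of 10 RING proteins and ubiquitin-transfer enzymes that work with cullins 0 were higher and 1 lower, with a median of 0.11. The lower one, Ube2d1, had only 26 saline and 4 treated reads. Ube2g1 was at 0.83, Ube2d3 at 0.67, Arih1 at 0.33, Cdc34 at -0.11 and Arih2 at -0.25.

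Genes of the NEDD8 pathway, which activates cullins, had the highest median of the partner lists at 0.31, with 1 of 13 higher, 1 lower and 9 above 0, where 45.7% of all 15097 symbols were above 0. Both subunits of the NEDD8-activating enzyme were near 2-fold, Uba3 at 1.07 (0.84 to 1.30) and Nae1 at 0.999 (0.52 to 1.51). Nedd8 itself was at 0.60 (0.38 to 0.81), from 410 saline and 326 treated reads. The conjugating enzyme Ube2m, which serves the cullins that carry Rbx1, was at -0.04 (-0.16 to 0.07), and Ube2f, which serves Cul5, at 0.28 (-0.06 to 0.63). Dcun1d3, a regulator of NEDD8 transfer, was at -0.97 (-1.34 to -0.62). The one lower member, Dcun1d2, had 30 saline and 2 treated reads.

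Among the COP9 signalosome, which removes NEDD8, and the factors that exchange receptors, 1 of 13 was higher and 0 lower, with a median of 0.12. The higher one was Cops2, a scaffold subunit of the signalosome, with 179 saline and 388 treated reads and a log2 fold of 2.04 (1.79 to 2.31). Its companions in the complex stayed within 2-fold, among them the catalytic subunit Cops5 (0.37), Cops9 (0.57), Cops6 (-0.19) and Cops7a (-0.40). Cand1, which frees cullins for a new receptor, was at 0.15 (0.04 to 0.26).

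Substrate receptors went both ways. Of 45 F-box genes, which serve Cul1, 4 were higher and 8 lower, with a median of -0.17; among the 36 that reach a normalised count of 50, 3 were higher and 3 lower. Of the lower ones, Fbxl2 had only 2 saline and 0 treated reads, too few for a bound. Fbxl15 (44 saline, 0 treated reads) was 7.70-fold lower with 3 reads put in place of 0. Its exact interval allowed a log2 fold up to -2.59. Among those 36, Fbxo5, an inhibitor of the anaphase-promoting complex, was highest at 2.03 (1.47 to 2.69), followed by Fbxo45 at 1.46. Fbxo9 and Fbxl19 were the lowest of the 36 at -1.60 and -1.58; Fbxl19 was at -0.94 with its highest isoform alone. Fbxw11, the abundant receptor for the inhibitor of NF-kappaB and for beta-catenin, was at -0.51 (-0.66 to -0.37), but at 0.69 with its highest isoform alone.

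Of 37 BTB receptor genes, which serve Cul3, 1 was higher and 7 lower by the size rule, but 4 of the lower ones had 0 treated reads and did not reach 2-fold when 3 reads were put in place of 0. The median of the 37 was -0.18. Klhl8, with 3 saline and 0 treated reads, had too few for a bound. With Klhl8 left out and the other genes with 0 treated reads at their bounds the median was -0.09, a move due to leaving out Klhl8. Keap1, the oxidant sensor, had 173 saline and 74 treated reads and lay at -0.29 (-0.71 to 0.10). Among the 29 that reach a normalised count of 50, 1 was higher and 3 lower. Of these 29, Klhl7 was highest at 1.29 and Klhl24 next at 0.96, while Klhl26 and Klhl22 were lowest at -1.96 and -1.21. Ivns1abp had the highest mean level at 0.37.

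Of 31 receptors that bind elongins, which serve Cul2 and Cul5, 2 were higher and 3 lower, with a median of -0.02, or -0.22 among the 29 that reach a normalised count of 50. Socs1 and Cish, feedback inhibitors of JAK-STAT signalling, were lowest at -2.81 (-3.69 to -2.13) and -2.02 (-2.39 to -1.69). Socs1 had 221 saline and 16 treated reads, and Cish 623 and 80. The higher ones were Pcmtd1 at 1.73 (1.38 to 2.11) and Asb13 at 1.17. Vhl was at 0.20 (-0.12 to 0.52) and Klhdc10, of the highest mean level, at 0.38.

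Of 25 receptors and partners that join Cul4 ligases through Ddb1, 2 were higher and 0 lower, with a median of -0.15. Phip was at 1.504 (1.25 to 1.77) and Crbn, the receptor bound by thalidomide, at 1.25 (0.97 to 1.54). Dcaf15 and Det1 were lowest at -0.96 and -0.95, and the abundant Dcaf7 was at -0.15. Fbxw8, the receptor of Cul7, was at -0.71 (-0.97 to -0.45), from 508 saline and 163 treated reads.

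Anapc2, the subunit of the anaphase-promoting complex that carries a cullin fold, had 1061 saline and 395 treated reads and lay at -0.50 (-0.67 to -0.33). Of 16 genes of that complex and its activators 3 were higher and 0 lower, with a median of -0.19. Cdc27 was highest at 1.26 (1.06 to 1.45) among those that reach a normalised count of 50, followed by Anapc15 at 1.06. Fzr1, an activator, was at -0.50, and Anapc5, the most abundant, at -0.10.

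**Figure D3:**
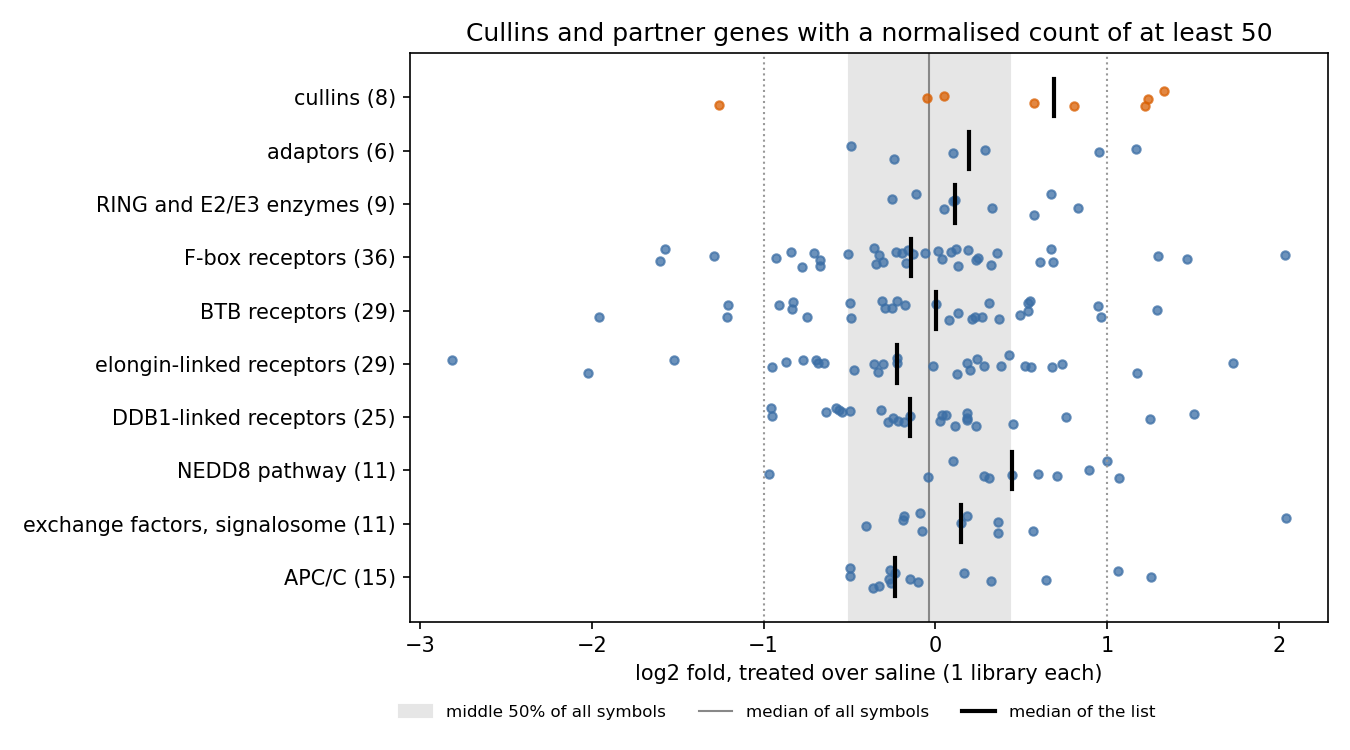
Log2 fold of each cullin and of each partner gene that reaches a normalised count of 50 in either library, 1 point per gene, with the median of each list (bar) and the median and middle 50% of all symbols that pass that filter (line and grey band). The cullin median of 0.69 lies to the right of the grey band and the NEDD8 pathway median of 0.44 lies just past its upper edge. The other partner medians drawn lie inside it, and the short list for Cul7 and Cul9 is not drawn. With the highest isoform alone the cullin median was 0.33, which is not drawn.

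Folds of the cullins were set beside those of their genomic neighbours, taken as the 10 nearest protein-coding genes by start on GRCr8 that reach a normalised count of 50, cullins left out. The cullins with the highest folds had neighbours with medians above 0, 0.66 for Cul4b, 0.56 for Cul5 and 0.30 for Cul3. Around Cul4b 9 of 10 neighbours were above 0, as were 47.9% of all symbols that reach a normalised count of 50. Mcts1, the nearest, was at 1.10. The median was 0.02 around Cul2, -0.31 around Cul1 and -0.46 around Cul4a. Cul7 and Cul9 are near each other on chromosome 9 and shared 9 of 10 neighbours. The medians there were -0.53 and -0.73, the lowest of the family, with Srf nearest to Cul9 at -0.82. Each cullin had a fold above the median of its neighbours except Cul9. The part of chromosomal position in the folds was not tested.

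**Figure D4:**
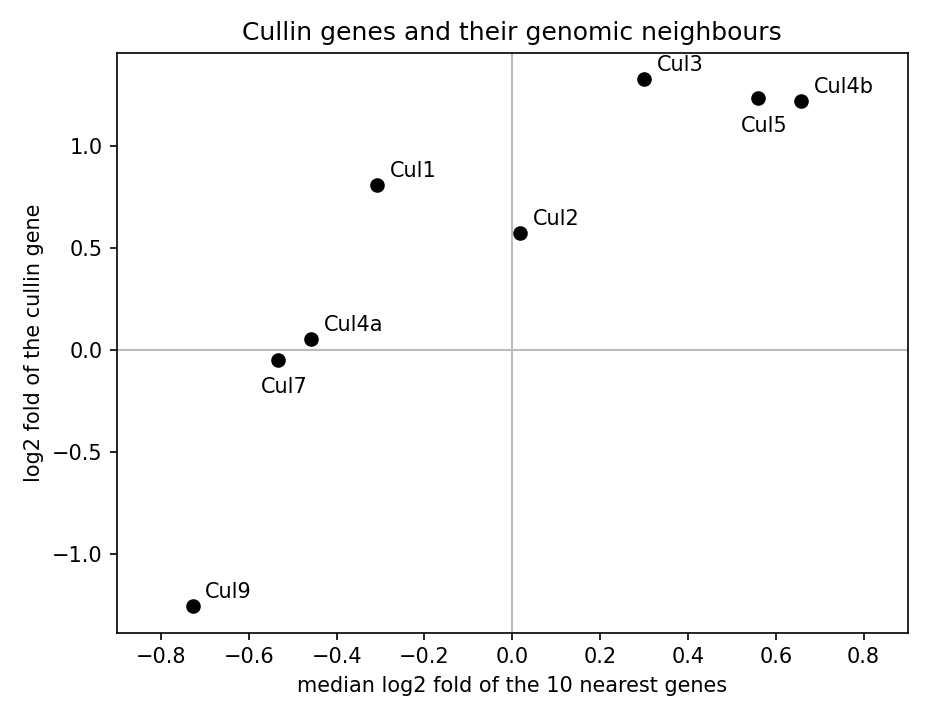
Log2 fold of each cullin gene (vertical axis) against the median log2 fold of its 10 nearest measured genes (horizontal axis), 1 point per cullin. Cul3, Cul4b and Cul5 lie in the upper right and Cul9 in the lower left, while Cul1 lies above 0 with a neighbour median of -0.31.

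Promoter windows from 250 bases before to 50 bases after the gene start were taken from RefSeq on GRCr8. They matched 7 of the 8 cullins by symbol, without Cul3. Those of Cul4b and Cul5, higher in the treated library, and of Cul9, lower in it, are shown to set side by side cullins with folds of opposite sign. Capitals mark matches, on either strand, to the GC box GGGCGG, the CCAAT box CCAAT, the ETS core CCGGAA, the NRF1 core GCGCATGC, the TATA box TATAAA, the cyclic AMP element TGACGTCA, the AP-1 site TGANTCA, the antioxidant element TGACNNNGC and the xenobiotic element core GCGTG.
Cul4b, chrX:122192250-122192549, minus strand: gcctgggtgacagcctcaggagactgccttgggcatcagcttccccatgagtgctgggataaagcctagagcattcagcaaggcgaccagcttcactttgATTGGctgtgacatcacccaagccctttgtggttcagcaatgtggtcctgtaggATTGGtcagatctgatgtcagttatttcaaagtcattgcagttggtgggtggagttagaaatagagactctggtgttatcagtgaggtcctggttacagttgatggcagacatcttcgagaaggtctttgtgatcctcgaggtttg
Cul5, chr8:62962522-62962821, minus strand: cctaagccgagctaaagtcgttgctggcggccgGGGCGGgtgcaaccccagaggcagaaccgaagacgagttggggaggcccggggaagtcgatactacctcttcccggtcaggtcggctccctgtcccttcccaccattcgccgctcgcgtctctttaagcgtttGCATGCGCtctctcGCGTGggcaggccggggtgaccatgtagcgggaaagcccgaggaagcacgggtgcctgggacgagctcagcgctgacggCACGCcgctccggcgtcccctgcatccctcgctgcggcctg
Cul9, chr9:21933553-21933852, plus strand: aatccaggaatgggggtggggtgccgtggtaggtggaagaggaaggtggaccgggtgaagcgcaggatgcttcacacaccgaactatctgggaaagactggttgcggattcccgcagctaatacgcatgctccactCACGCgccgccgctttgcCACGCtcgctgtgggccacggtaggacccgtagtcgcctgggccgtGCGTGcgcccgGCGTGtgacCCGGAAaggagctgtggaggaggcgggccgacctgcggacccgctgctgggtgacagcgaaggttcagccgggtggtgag

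The window of Cul4b held 3 CpG dinucleotides and 49.7% G and C, and 2 CCAAT matches. Those of Cul5 and Cul9 held 32 and 28 CpG and 67.3% and 65.7% G and C, against medians of 7 CpG and 51.7% over 33469 windows of that length. All windows, here and below, include genes that were not measured. Only part of the measured symbols entered a grouping by G and C. Of that part, the 1421 lowest in G and C held 28% to 54%, a range that takes in Cul4b. Cul5 and Cul9 lay in the range of 1375 symbols with 64% to 69%, and 1351 held more. The remaining cullin windows, Cul1, Cul2, Cul4a and Cul7, held between 21 and 44 CpG. The xenobiotic element core was found 4 times in Cul9, 2 times each in Cul5 and Cul7 and once in Cul2, and in 29.7% of all windows. The NRF1 core was found in Cul5 alone and in 2.47% of all windows. GC boxes were found in 4 of 7 cullin windows (33.1% of all), and ETS cores in 3 (15.0% of all). The AP-1, cyclic AMP, antioxidant and TATA letters were in none of the 7 windows, against 7.33%, 1.83%, 12.1% and 14.2% of all windows. These are matches of letters, and no binding was measured. Shares among windows of like G and C content were not taken, so nothing is read from the counts of matches.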

How the data were processed

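Total RNA of RBL-2H3 cells was made into strand-specific libraries with a TruSeq kit, per the labels' protocols. FastQC, STAR 2.5, Cuffnorm and DESeq 1.22.1 are named in the submitters' processing notes without role or order. The genome build, the annotation and the way reads were assigned were not given in the sources used here. Each transcript has a log2 value per library in the authors' deposited table. The column headed NS is named as in the saline title; the column headed x100 was matched to the treated sample because its title, PM100, is the only one with that number, and the direction of every fold rests on this match. Undoing the log and subtracting 1 gave whole multiples of a fixed step for 100% of values of both libraries (tolerance 1e-06 of a read), from which the reads followed (size factors 1.15 for saline and 0.605 for treated). The p-values and their adjusted values, per the file headers, are quoted as listed by the authors. A set of 4 columns that repeat these values was not used.

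Values were summed by symbol. Transcripts without a symbol were left out. No model or test between conditions was run. A fold against a library with 0 reads is given against a floor of 3 reads. Intervals and floors cover counting error only, since reads are not independent molecules. Partner genes came from 10 lists. A gene that the naming rule takes is not reported here. Per list, the 2 highest and 2 lowest folds at a normalised count of at least 50, the highest mean level and direct partners of a cullin were named; Fbxl15, Fbxl2, Ube2d1, Dcun1d2, Cops5 and Tceb2 were named after their values were seen. Members and lists were chosen with earlier results of these data known. Protein sequences and coding lengths were not used here. The fold and interval procedure was run on simulated Poisson counts. These hold counting error alone, without spread between cultures or errors in isoform assignment, so the run says nothing about either. Alternatives were other pseudocounts, filters, scalings, isoform choices and a smaller size rule. Computations used SciPy 1.17.1, NumPy 2.4.6 and pandas 2.3.3 in Python 3.11.15; figures used Matplotlib 3.10.9.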

Additional observations from a re-analysis of the deposited data

How the results depend on the processing

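Across other pseudocounts and scalings, Cul3, Cul4b and Cul5 stayed at least 2-fold higher and Cul9 at least 2-fold lower. Log2 folds were 1.27 to 1.36 for Cul3, 1.17 to 1.26 for Cul4b, 1.18 to 1.27 for Cul5 and -1.31 to -1.22 for Cul9. The filter and the choice of transcripts could not change these folds, since each gene had 1 isoform and passed every filter. With a 1.5-fold size rule 4 cullins were higher, Cul1 being added. With the highest isoform alone, Cul1 was at -0.09, the median of the cullins at 0.33 and that of the adaptors at -0.096, the latter through Tceb1. The fold of Cul4a ranged from -0.0019 to 0.09 over the settings. The remaining 188 of 191 values stayed within set limits, among them values that a filter or choice of transcripts could not change. For the fold of a cullin the limit was its counting interval, and for counts a change of at most 1.5 times. A list median had to lie between the medians of its members' lower and upper interval bounds. Those bounds reflect the counting error of single genes and not that of a median, so they are a loose limit.

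Counts over all symbols moved more. The 1826 higher and 2876 lower symbols became 1023 and 1650 with a pseudocount of 5, 707 and 813 with a filter of 50, and 3298 and 4439 with a 1.5-fold rule. The scalings shifted all folds by -0.05 to 0.04. No paired analysis was possible because each group had 1 library. Depth limits Cul7 most, with 37 treated reads.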
